A study of Mus musculus with 2 samples.

Results

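The nuclei described here are mesothelial and epicardial nuclei, the cells of the single-layered sheet that covers the heart and lines the cavity around it. They were chosen from 2 libraries of single-nucleus RNA sequencing of mouse heart by their own transcripts. A barcode was taken when it held 200 or more genes, no more than 30% mitochondrial UMIs (unique molecular identifiers, each standing for 1 captured RNA molecule) and at least 3 distinct genes of the set Msln, Upk3b, Lrrn4, Muc16, Wt1, Rspo1, Cldn15, Tmem151a and Upk1b. It also had to hold at most 1 UMI summed over the endothelial, immune and pericyte genes Pecam1, Cdh5, Ptprb, Csf1r, Ptprc and Kcnj8, with up to 3 UMIs of the airway gene Scgb1a1 allowed. The rule found 310 nuclei among 12598 barcodes that passed the gene and mitochondrial limits in the CF-KI library, and 463 among 10896 in the control library.

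The study placed a constitutively active form of Nlrp3, the sensor protein of the inflammasome, in cardiac fibroblasts. The CF-KI library came from cardiac tissue of genotype Tcf21-MerCreMer;Nlrp3-A350V/A350V and the control library from Tcf21-MerCreMer;Nlrp3-WT/WT. Both came from male C57Bl6/J mice of 3.5 months, and both groups carried the Tcf21-driven inducible Cre and received Tamoxifen injections. According to the series record the altered allele is silent in cells without Cre. Tcf21 marks cardiac fibroblasts and is also used by epicardial cells during heart development. Whether the inducible Cre acted in the chosen nuclei was not tested. Each group is 1 library of cardiac tissue, and how many animals went into each is not given in the sources used here. With 1 library a group there is no replicate check and no test of condition. All intervals, given in parentheses, are exact 95% intervals unless called approximate or given for a list's median. They cover counting error only and leave out the spread among nuclei, which for some genes was wider than counting allows. Differences between animals and between preparations cannot be told apart from the genotype.

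Mesothelial cells are epithelial cells of mesodermal origin. They stand on a basement membrane, are joined by tight and adherens junctions, carry a glycocalyx of mucins and mesothelin on the free surface, and express simple-epithelial keratins beside mesenchymal genes such as vimentin. On the heart this layer is the epicardium, which depends on Wt1 and Tbx18 in development, makes retinoic acid through Aldh1a2, and secretes growth factors such as Fgf9 and Igf2 towards the muscle. After injury epicardial cells can take up fetal genes again and secrete matrix, chemokines and complement components.

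Depth was low in both libraries, as is usual for nuclei. The chosen nuclei held a median of 1260 UMIs (range 517 to 9249) and 702.5 genes in CF-KI. In the control they held 1208 UMIs (range 525 to 7079) and 677 genes. Their summed non-mitochondrial UMIs were 454648 and 647784, and every level below is a count per 1000000 UMIs of these sums (CPM). Where a pair of values is given without a library, CF-KI comes first and the control second. Their median mitochondrial shares were 10.2% and 3.18%, and over all kept barcodes they were 12.1% and 3.28%. The libraries shared 46 barcode sequences, and 0 of them belonged to a chosen nucleus.

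The chosen nuclei made up 2.46% (2.20 to 2.75) of the kept barcodes in CF-KI and 4.25% (3.88 to 4.65) in the control. The difference was -1.79 percentage points (approximate interval -2.26 to -1.32). The share was lower in CF-KI under each of the 9 other settings tried. The size of the difference was less steady. It was -0.972 points when only barcodes with at most 10% mitochondrial UMIs were counted, where 154 CF-KI and 374 control nuclei remained. It was -0.899 points when every barcode of at least 500 non-mitochondrial UMIs was thinned to 500 UMIs, where 134 of 11678 and 218 of 10653 were chosen. Because barcodes and not tissue areas are counted, a smaller share of this layer and a larger share of other nuclei cannot be told apart.

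The 9 genes that chose the nuclei are a description of the rule and not a finding. Msln encodes mesothelin and Muc16 the large surface mucin that binds it. Upk3b and Upk1b are uroplakins, proteins of specialised free cell surfaces. Wt1 is the zinc-finger factor of the developing epicardium, Rspo1 a secreted enhancer of Wnt signalling and Cldn15 a claudin of tight junctions, while Lrrn4 and Tmem151a encode membrane proteins. To ask how well each gene stood for the rest, nuclei were chosen again on the other 8 genes alone. Msln was then at 1061 CPM (963 to 1166) and 928 CPM (851 to 1010), against 13.7 and 13.3 CPM in barcodes with none of the other 8. Wt1 was at 402 CPM (342 to 469) and 431 CPM (379 to 488), against 12.7 and 8.78 CPM. Upk3b was at 1330 CPM (1217 to 1451) and 1216 CPM (1126 to 1311), against 26.8 and 20.2 CPM. Each of the 9 genes was higher in nuclei chosen without it, and Tmem151a, at 203 and 253 CPM against 3.71 and 3.8 CPM, had the lowest level in both libraries. Among barcodes with none of the other 8 markers, 2.95% and 2.79% still held a Upk3b UMI, and how much of this is free RNA was not tested.

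The same rule left much of the RNA of its marker genes outside the chosen nuclei, and the source of that RNA was not tested. The chosen nuclei held 54.0% of all Msln UMIs of the deposited CF-KI barcodes and 55.8% of those of the control. Barcodes that failed the filters are included in these totals. For Wt1 the shares were 40.8% and 55.1%. In fibroblast nuclei, chosen by at least 3 of 10 fibroblast markers and at most 1 of the 9 mesothelial markers, Wt1 was at 5.09 and 4.61 CPM and Msln at 13.2 and 11.7 CPM.

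The promoters of the marker genes are shown as a description, since the rule chose the nuclei by these genes. The RefSeq table for GRCm38.p6 holds 2 of the 4 defining markers, Upk3b and Lrrn4, while Msln and Wt1 had no entry in the table. Each run covers 250 bases before and 50 bases after the gene's start, 5′ to 3′ on the gene's strand, with a match to GGAATG, the core recognised by TEAD factors, or to its reverse complement CATTCC in capitals. The Upk3b promoter lies at chr5:136038246-136038545 on the plus strand and the Lrrn4 promoter at chr2:132880813-132881112 on the minus strand.
Upk3b: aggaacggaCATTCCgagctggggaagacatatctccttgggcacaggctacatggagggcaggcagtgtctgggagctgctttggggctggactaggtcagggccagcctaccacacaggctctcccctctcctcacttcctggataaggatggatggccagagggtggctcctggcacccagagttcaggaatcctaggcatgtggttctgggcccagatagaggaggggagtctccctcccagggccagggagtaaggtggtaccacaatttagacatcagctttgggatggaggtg
Lrrn4: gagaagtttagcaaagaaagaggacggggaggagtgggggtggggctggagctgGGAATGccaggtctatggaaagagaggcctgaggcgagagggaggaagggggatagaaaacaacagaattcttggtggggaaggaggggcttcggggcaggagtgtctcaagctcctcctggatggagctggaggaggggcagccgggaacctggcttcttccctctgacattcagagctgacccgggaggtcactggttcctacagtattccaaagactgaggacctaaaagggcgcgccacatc
Each promoter held 1 match to this TEAD core, starting at position -241 in Upk3b and at -196 in Lrrn4. Of all 27025 promoters of the table, 14.6% hold the core on either strand. Neither promoter held TGATAA, a single one of the forms that GATA factors bind and the only one searched, present in 9.26% of all promoters, or GCGGGGGCG, the sequence of EGR and WT1 type present in 2.92%. No matched letters overlap another motif, and a match describes letters only.

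Around the threshold of 3 markers the transition was gradual, as the plot of identity genes by number of rule markers shows. A list of 30 mesothelial identity genes that the rule did not use, among them the keratins Krt19, Krt8, Krt18 and Krt7, the adhesion glycoprotein gene Gpm6a and the transcription factor genes Bnc1 and Bnc2, summed to 1213 CPM for CF-KI and 984 CPM in control barcodes without any rule marker. Barcodes with 1 marker held 1571 and 1265 CPM. Just outside the threshold, the 212 and 151 barcodes with 2 markers held 4295 CPM (4035 to 4568) and 4769 CPM (4460 to 5093). Just inside it, the 123 and 149 nuclei with 3 markers held 7363 CPM (6906 to 7842) and 6723 CPM (6349 to 7113). With 5 or more markers the sum was 17407 CPM in 111 CF-KI nuclei and 13822 CPM in 192 control nuclei. Barcodes just outside the threshold thus stood above those without a marker and below those just inside, with counting intervals that did not overlap. Deeper nuclei show more markers, and the median depth was 1914 and 1464 UMIs with 5 or more markers against 1081 and 1004 with 3, so marker number and depth move together.

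**Figure D1:**
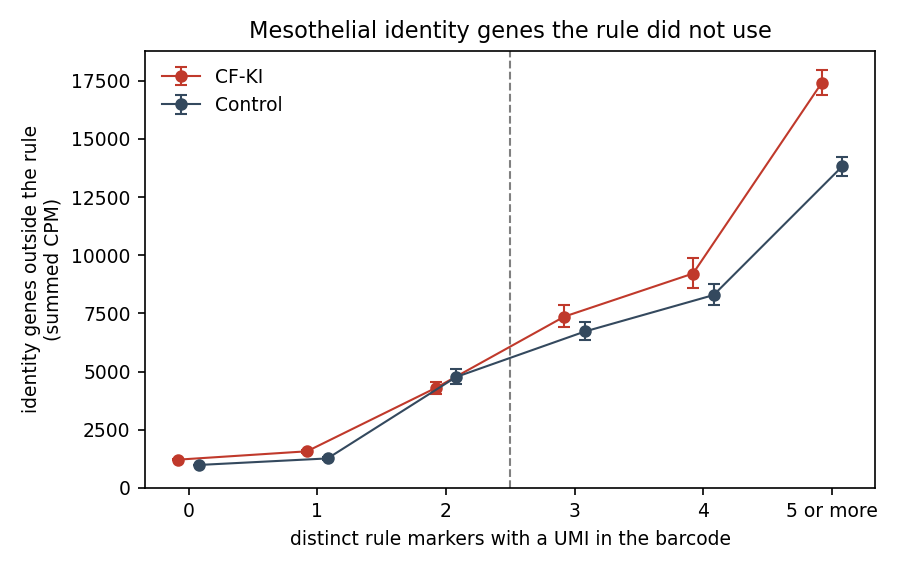
Summed CPM of 30 mesothelial identity genes outside the rule (vertical axis, linear) in barcodes with 0, 1, 2, 3, 4 and 5 or more distinct rule markers, for CF-KI (red) and control (dark blue). Bars are exact 95% Poisson intervals and the dashed line is the rule's threshold. The level climbs from about 1000 CPM without a marker to 17407 and 13822 CPM with 5 or more, with 2-marker barcodes in between.

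The edge set by the excluded genes looked different in each library. Nuclei with at least 3 markers and exactly 1 UMI of the 6 excluded genes, which the rule keeps, numbered 59 and 103 and held 13564 and 11433 CPM of the identity genes. Barcodes with 2 such UMIs, which the rule drops, numbered 17 and 31 and held 7825 and 14935 CPM. With 3 or more, 44 and 52 barcodes held 4805 and 5924 CPM at a median depth of 4420 and 3242 UMIs.

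RNA of genes that mark other heart cells was present in the chosen nuclei. The 12 cardiomyocyte markers, such as the sarcomere genes Ttn and Myh6, summed to 14581 and 7100 CPM, which is 0.513 and 0.322 of their level over all kept barcodes. Fibroblast markers summed to 6315 and 5806 CPM, against 16880 and 31640 CPM in fibroblast nuclei. Dcn alone gave 2017 of these 2871 UMIs in CF-KI and 2036 of 3761 in the control. Its level was 2294 and 1931 CPM with 3 rule markers and 6011 and 3866 CPM with 5 or more. Pdgfra was at 76.2 and 106 CPM with 3 and 37.9 and 90 CPM with 5 or more. How much of the Dcn is the layer's own was not tested. At least 3 distinct fibroblast markers were held by 117 (37.7%) and 163 (35.2%) of the chosen nuclei. Endothelial markers outside the rule summed to 671 and 715 CPM, which is 0.537 and 0.8 of their level over all kept barcodes. In fibroblast nuclei they summed to 529 and 282 CPM. Of the lymphocyte markers Cd3e, Skap1 and Themis were at 0 UMIs in both libraries, and that list as a whole was at 145 and 159 CPM. The macrophage list was at 165 and 250 CPM. Globin and platelet genes were at 1137 and 536 CPM, below the 16617 CPM over all kept CF-KI barcodes. The airway list was at 6.60 CPM in CF-KI, with 8 of its 10 genes at 0, and at 349 CPM in the control, where the kept barcodes held 720 CPM. In 6 control nuclei at least 3 airway markers were found. The part of these RNAs in the comparisons of the libraries was not tested, and for most genes compared between the libraries the log2 ratio over the other kept barcodes, marked as elsewhere, is given with the value.

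The transcripts furthest above fibroblast nuclei of the same libraries included Pkhd1l1, Lrp2, Fras1, Lrrc31 and the junction genes Cgn and Cdh3. Of 4067 genes with at least 50 UMIs in the chosen nuclei, 438 (10.8%) were at least 2-fold higher than in fibroblast nuclei in both libraries and 117 (2.88%) at least 2-fold lower in both. The nuclei were chosen by their transcripts, so these counts describe the rule's outcome and carry no test. There were 4539 and 3903 fibroblast nuclei, with median depths of 1014 and 1101 UMIs.

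Outside the genes of the rule, the genes furthest above fibroblast nuclei were close to absent from the latter. Fras1, which encodes a protein that anchors epithelia to the basement membrane, was at 187 CPM in both libraries against 3.26 and 2.11 CPM in fibroblast nuclei, log2 ratios of 5.84 and 6.47. Lrp2, the gene for the endocytic receptor megalin, was at 235 and 224 CPM against 4.48 and 1.73 CPM. Pkhd1l1, which encodes fibrocystin-L, was at 1588 and 1403 CPM against 33.4 and 24.0 CPM, and 77.4% and 75.6% of the chosen nuclei held at least 1 of its UMIs. Lrrc31 was at 213 and 225 CPM against 2.85 and 1.92 CPM. These levels were alike in the libraries, with log2 ratios of CF-KI over control of 0.00 (-0.42 to 0.41) for Fras1, 0.07 (-0.30 to 0.44) for Lrp2, 0.18 (0.04 to 0.32) for Pkhd1l1 and -0.08 (-0.46 to 0.30) for Lrrc31.

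Junction genes stood in the same group. Cgn, the gene of the tight-junction protein cingulin, was at 117 and 114 CPM against 1.43 and 2.5 CPM in fibroblast nuclei. Cdh3, which encodes P-cadherin, was at 50.6 and 58.7 CPM against 1.22 and 0.768 CPM. Both genes were thus present in each library at nearly the same level, with log2 ratios of CF-KI over control of 0.03 (-0.51 to 0.56) for Cgn and -0.21 (-1.03 to 0.57) for Cdh3. Transport and signalling genes followed. Slc26a3, a chloride and bicarbonate exchanger gene, was at 202 and 282 CPM against 4.89 and 1.92 CPM. Tnfrsf11b, the gene for the secreted decoy receptor osteoprotegerin, was at 79.2 and 37.1 CPM against 1.43 and 0.768 CPM. Pcnx2, Esyt3, Mbp, Bnc1, Elavl2, Cd244a and Lgals7 complete the 15 genes furthest above, with log2 ratios over fibroblast nuclei of at least 5.18 in CF-KI. Mbp is best known as the myelin basic protein gene of glia, while the Schwann cell and neuron list as a whole was at 30.8 and 43.2 CPM in the chosen nuclei.

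At the other end were genes of the fibroblast matrix and membrane. Crispld2, which encodes a secreted protein of mesenchymal cells, was at 33.0 and 94.2 CPM against 346 and 696 CPM in fibroblast nuclei. Ebf1, a transcription factor gene of fibroblasts and B cells, was at 145 and 156 CPM against 956 and 900 CPM. Nid1, the gene for the basement-membrane linker nidogen, was at 121 and 141 CPM against 661 and 1038 CPM. Dpep1, Plpp3, Sparcl1, Col5a3 and Nav1 were also among the 8 lowest, each with log2 ratios between -3.14 and -2.35 in both libraries. Matrix is therefore divided between the layers: Fras1 was on the mesothelial side and Nid1 on the fibroblast side.

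**Figure D2:**
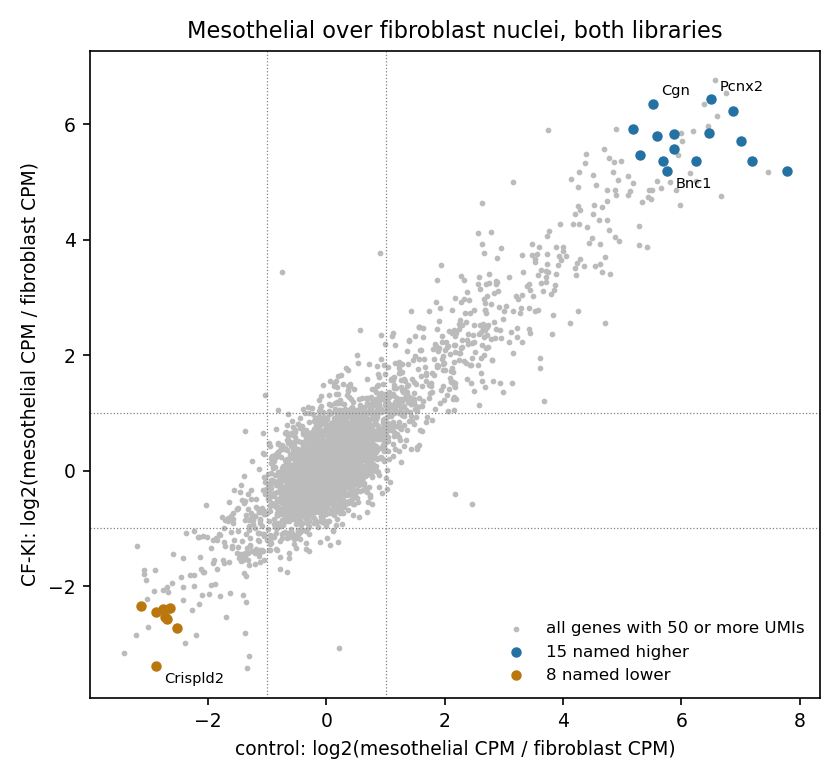
Log2 ratio of CPM in mesothelial nuclei over fibroblast nuclei for 4067 genes, control on the horizontal and CF-KI on the vertical axis, counts under 3 set to 3. Blue marks the 15 genes named as furthest above fibroblast nuclei and orange the 8 furthest below. Dotted lines stand at 2-fold. The named genes lie beyond 5 in both libraries above and below -2 in both libraries below. Other points near them are genes of the rules.

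Gene lists describe the layer further. For list members a minimum of 20 UMIs over both libraries was used. Of 7838 such genes 9.4% were at least 2-fold higher and 3.16% at least 2-fold lower than in fibroblast nuclei in both libraries, with medians of log2 0.13 and 0.02. Of the 30 identity genes outside the rule 28 reached the minimum. Of these, 24 were at least 2-fold higher than in fibroblast nuclei in both libraries and 0 lower, with median log2 ratios of 3.68 and 3.14. Krt19, the keratin of simple epithelia, was at log2 5.91 and 4.89 over fibroblast nuclei, Gpm6a at 4.85 and 5.46, and Bnc1 at 5.18 and 5.75. Itm2a was the weakest of those named, at 0.39 and 0.44. Calb2 and Tgm1, a calcium-binding protein gene used to mark mesothelium in pathology and a transglutaminase gene, did not reach the minimum.

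Epicardial transcription factors were present in part. Of 26 genes in that list 21 reached the minimum, 6 of them at least 2-fold higher and 5 at least 2-fold lower than in fibroblast nuclei in both libraries. Tbx18, a T-box gene of the developing epicardium, was at 145 and 190 CPM, log2 2.48 and 2.65 over fibroblast nuclei. Gata5 was at 52.8 and 60.2 CPM, log2 4.70 and 5.48 over fibroblast nuclei, and Sema3d, a secreted guidance cue, was at 341 and 241 CPM, log2 3.86 and 2.95. Tbx18, Gata5 and Sema3d were therefore well above fibroblast nuclei in both libraries, and their levels in other cell types are not given here. Gata6 was at 233 and 247 CPM, only log2 0.70 and 0.77 above fibroblast nuclei. The 2 genes of epithelial-to-mesenchymal change Zeb1 and Zeb2 were lower than in fibroblast nuclei, at log2 -1.59 and -1.73 for Zeb1 and -1.77 and -1.40 for Zeb2.

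Retinoid genes were sparse. Of 18 genes 7 reached 20 UMIs, 1 of them at least 2-fold higher than in fibroblast nuclei in both libraries. That gene was Aldh1a2, the main retinoic acid synthesis enzyme of the epicardium, at 143 and 111 CPM, log2 2.52 and 2.59 over fibroblast nuclei. Aldh1a1, another enzyme of retinoic acid synthesis, was at 156 and 139 CPM. It did not stand apart from fibroblast nuclei in the same way in both libraries, with log2 ratios of 1.03 and -0.13.

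Secreted growth factors and their binding proteins were represented by 20 of 39 genes, of which 10 were at least 2-fold higher and 3 at least 2-fold lower than in fibroblast nuclei in both libraries. Igfbp5, which binds insulin-like growth factors, was at 8314 and 5621 CPM, log2 4.51 and 4.29 over fibroblast nuclei, with a UMI in 85.2% and 83.4% of the chosen nuclei. Fgf9, an epicardial signal to the developing muscle, was near the limit of detection with 15 and 10 UMIs, and Igf2 with 11 and 7. Wnt5a, a non-canonical Wnt ligand gene, was at 110 and 92.6 CPM, log2 2.02 and 2.08 over fibroblast nuclei. Tgfa, a ligand of the epidermal growth factor receptor, was at 44.0 and 27.8 CPM, log2 3.95 and 4.01.

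Of the 36 junction and polarity genes 29 reached 20 UMIs. Of these, 10 were at least 2-fold higher than in fibroblast nuclei in both libraries and 0 lower. Cdh11, the gene for cadherin-11 of mesenchymal contacts, was at 361 and 335 CPM, log2 3.12 and 3.44 over fibroblast nuclei. F11r, which encodes the tight-junction adhesion molecule JAM-A, was at 83.6 and 74.1 CPM, log2 2.31 and 2.95. Cdh1, the E-cadherin gene of most epithelia, had 0 and 6 UMIs. Cdh11 was thus readily detected in this layer, with a UMI in 97 and 142 nuclei, while Cdh3 was found in only 23 and 34. Cdh1 was not readily detected at this depth.

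Basement membrane and matrix genes were divided. Of 30 genes with 20 UMIs, 3 were at least 2-fold higher and 12 at least 2-fold lower than in fibroblast nuclei in both libraries. Those higher were Fras1, Agrn and Has1, which encodes a hyaluronan synthase. Agrn, the gene of the heparan sulfate proteoglycan agrin, was at 101 and 83.4 CPM, log2 1.86 and 1.15 over fibroblast nuclei. Has1 had 24 and 17 UMIs, log2 2.62 and 2.51. Among those lower, Lamc1, a laminin chain gene, was at log2 -2.09 and -2.68 and Col15a1 at -2.22 and -3.03. Uroplakin genes outside the rule gave no member with 20 UMIs, and neither did the 10 proliferation genes.

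Positional genes were sparse, and 3 of the 30 in the list, Hoxb4, Hoxb2 and Tbx2, reached 20 UMIs. The 20 Hox genes of the list summed to 46 UMIs in each library, or 101 CPM (74.1 to 135) and 71.0 CPM (52.0 to 94.7). In fibroblast nuclei they summed to 22 and 25.6 CPM. The intervals of mesothelial and fibroblast nuclei did not overlap in either library. Hoxb4 had 12 and 8 UMIs and Hoxb2 had 9 and 12. The rule has no gene that separates the epicardium from the lining of the pericardial or pleural cavity, and these cannot be told apart here.

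Between the libraries, the genes named as higher in CF-KI nuclei were Slc6a4, Lgals7, Lgals1, Gm8797 and 8 genes of muscle and the respiratory chain, and those named as lower included the airway genes Scgb1a1 and Bpifa1 and the gene Myocd. Of the 4067 genes with at least 50 UMIs, 290 (7.13%) were at least 2-fold higher in CF-KI and 79 (1.94%) at least 2-fold lower, with a median log2 ratio of 0.06. Under TMM scaling the counts were 245 and 112, and under median-of-ratios scaling 234 and 127, since these settings moved every log2 ratio by -0.07 and -0.10. At a mitochondrial limit of 5%, where 39 CF-KI and 291 control nuclei and 1476 genes remained, the balance turned, with 140 genes (9.49%) higher and 173 (11.7%) lower. No count of changed genes can be given with 1 library a group, and these counts only say how many ratios passed 2-fold. Genes are named by the end of their counting interval nearest to 0.

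Slc6a4, the serotonin transporter gene, was counted with 50 UMIs (110 CPM, 81.6 to 145) over 38 nuclei of CF-KI and 5 UMIs (7.72 CPM, 2.51 to 18.0) over 5 of the control, a log2 ratio of 3.83 (2.52 to 5.52). It was found in 12.3% and 1.08% of the nuclei, against 0.176% and 0% of fibroblast nuclei. The latter were shallower, with median non-mitochondrial depths of 848 and 1029 UMIs against 1094 and 1131. Over all other kept barcodes the log2 ratio was 1.54. The chosen nuclei, 2.46% of the kept CF-KI barcodes, held 51.5% of the Slc6a4 UMIs of those barcodes. The gene lies at chr11:76998603-77032340 on the plus strand of GRCm38.

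Lgals7, the galectin-7 gene of stratified epithelia, was counted with 126 UMIs (277 CPM) over 40 nuclei of CF-KI and 22 UMIs (34.0 CPM) over 19 of the control, a log2 ratio of 3.03 (2.37 to 3.75) against 0.66 over the other barcodes. Lgals1, the gene for galectin-1, a lectin of mesenchymal cells, had 359 UMIs (790 CPM) and 116 UMIs (179 CPM), a log2 ratio of 2.14 (1.84 to 2.46) against 0.62. Gm8797 had 52 and 0 UMIs, at least 24.7-fold higher against a floor of 3 UMIs per library, and had a log2 ratio of 5.55 over the other barcodes. In fibroblast nuclei Lgals7 had 24 and 2 UMIs, for a log2 ratio of 3.67 (1.66 to 6.80), as high as in the chosen nuclei, and Gm8797 had 5.10 (4.16 to 6.24). There Lgals1 had 0.26 (0.17 to 0.36) and Slc6a4 had 9 and 0 UMIs. The higher CF-KI level of Lgals7 and Gm8797 was thus also seen in fibroblast nuclei, and for Lgals1 it was smaller there.

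The other 8 genes named as higher belong to muscle and the respiratory chain. Myl2, the ventricular myosin light chain gene, was at 2305 and 548 CPM, a log2 ratio of 2.07 (1.90 to 2.25) against 2.02 over the other barcodes. Tnni3, cardiac troponin I, was at 1511 and 468 CPM, 1.69 (1.49 to 1.89) against 1.53. Cox7a1, a muscle subunit gene of cytochrome oxidase, was at 266 and 41.7 CPM, 2.67 (2.06 to 3.33) against 2.25. Myl3, Actc1, Cox6a2, Cox7b and Atp5g1 had log2 ratios between 1.74 and 2.15 against 1.64 to 1.85 elsewhere. All 8 had lower CPM in the chosen nuclei than in fibroblast nuclei of the same library, and the part of free muscle RNA in the difference was not tested.

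Among genes lower in CF-KI, the airway genes Scgb1a1 and Bpifa1 had 0 UMIs in CF-KI and 194 and 95 in control nuclei. This was at least 45.4-fold and 22.2-fold lower against the floor of 3 UMIs per library. Both were present at higher levels over all kept control barcodes, at 793 and 416 CPM against 299 and 147 CPM in the chosen nuclei, and the rule itself capped Scgb1a1. Myocd, the gene of the serum response factor partner myocardin, was different in kind. It was counted with 18 UMIs (39.6 CPM) over 15 nuclei of CF-KI and 83 UMIs (128 CPM) over 67 of the control, a log2 ratio of -1.69 (-2.52 to -0.95) against 0.21 over the other barcodes and 0.89 in fibroblast nuclei. Its level over fibroblast nuclei was log2 2.17 in the control and -0.41 in CF-KI.

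The other genes named as lower in CF-KI were for the most part also lower over the other barcodes, by a smaller ratio. Gm43581, a transcript in an intron of Slc16a1 on the same strand whose reads may not be separable from that gene, had 6 and 46 UMIs, for a log2 ratio of -2.43 (-3.95 to -1.20) against -0.63 elsewhere and 0.03 in fibroblast nuclei. Aifm2, which encodes a suppressor of ferroptosis, had 13 and 68 UMIs, -1.88 (-2.86 to -1.01) against -0.66. Gria3, a glutamate receptor subunit gene, had 24 and 95 UMIs, -1.47 (-2.19 to -0.82) against -0.42. Adamts10, Marf1, Usp40 and Map3k14 had log2 ratios between -1.92 and -1.62 against -0.71 to -0.41 elsewhere, and Gm47283 -1.77 against -1.34. Retnla was counted with 7 UMIs over 7 nuclei of CF-KI and 45 UMIs over only 7 of the control, so its log2 ratio of -2.17 (-3.57 to -1.01) rests on few nuclei. Elsewhere it was 0.40 and in fibroblast nuclei 0.86, the other way. In the chosen nuclei it was 0.95, on 6 and 4 UMIs, when the nuclei with the highest doublet scores were left out.

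**Figure D3:**
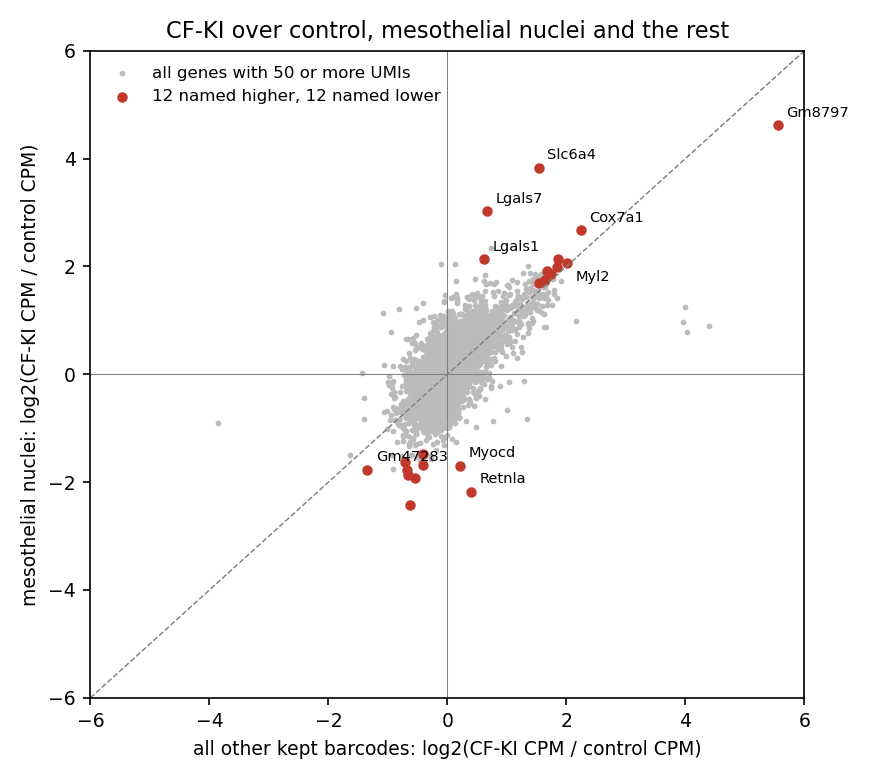
Log2 ratio of CF-KI over control CPM for 4067 genes, over all other kept barcodes on the horizontal axis and in mesothelial nuclei on the vertical axis, where counts under 3 were set to 3. Red marks the named genes that fall inside the plot, and the dashed diagonal is an equal ratio. Scgb1a1 and Bpifa1 lie outside the plotted range or have no ratio elsewhere. Myl2 and Cox7a1 lie near the diagonal, Slc6a4, Lgals7 and Lgals1 above it, and Myocd and Retnla below it.

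The depth of the nuclei mattered for several of these genes, and the split used here was chosen after the values were seen. In CF-KI the 68 nuclei with 2000 UMIs or more (21.9% of the chosen) held 45.6% of their UMIs, and in the control 87 such nuclei (18.8%) held 37.1%. Lgals7 was at 507 CPM in deep CF-KI nuclei and 49.9 CPM in deep control nuclei, and at 108 and 17.5 CPM from 1000 to under 2000 UMIs, while under 1000 UMIs its counts were 1 and 5 UMIs, or 16 and 41.2 CPM. Krt19, named here for this pattern, was at 994 and 308 CPM in deep nuclei, 314 and 248 CPM in nuclei of 1000 to under 2000 UMIs, and 144 and 296 CPM under 1000 UMIs, so its log2 ratio went from 1.69 to 0.34 and -1.04. Over all nuclei it was 1.10 (0.83 to 1.38), against -0.12 elsewhere. Lgals1 followed the same order, at 1337 and 187 CPM in deep nuclei, 384 and 182 CPM in the middle group and 176 and 156 CPM under 1000 UMIs. For these 3 genes the difference between the libraries was therefore largest in the deep nuclei, and among nuclei under 2000 UMIs the log2 ratio was 1.79 for Lgals7 and 0.93 for Lgals1.

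Dmkn, the epidermal gene dermokine, had a log2 ratio of 2.04 (1.38 to 2.74) over all nuclei, 0.13 in nuclei under 2000 UMIs and -0.11 elsewhere. Anxa8, an annexin gene, had 2.15 (1.02 to 3.42), 0.46 and -0.08. For Slc6a4 the log2 ratio under 2000 UMIs was 3.38 and for Myocd it was -1.65, close to the values over all nuclei. At the 5% mitochondrial limit Myocd was at -0.67 on 6 and 59 UMIs, and Slc6a4 at 2.63 on 3 UMIs in each library. Malat1, a nuclear non-coding RNA, was lower in CF-KI at every depth, and also over the other barcodes with a log2 ratio of -0.35. Over all chosen nuclei it was at 191550 and 276216 CPM, and under 1000 UMIs at 210191 and 260864 CPM. The gap was wider at 164472 and 277926 CPM in deep nuclei, and 114723 and 261197 CPM in the 17 and 10 nuclei of 4000 UMIs or more. Deep CF-KI nuclei therefore held less Malat1 and more Krt19, Lgals7 and Lgals1 per UMI than deep control nuclei. The part of cytoplasmic RNA or of nuclear quality in these differences was not tested.

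**Figure D4:**
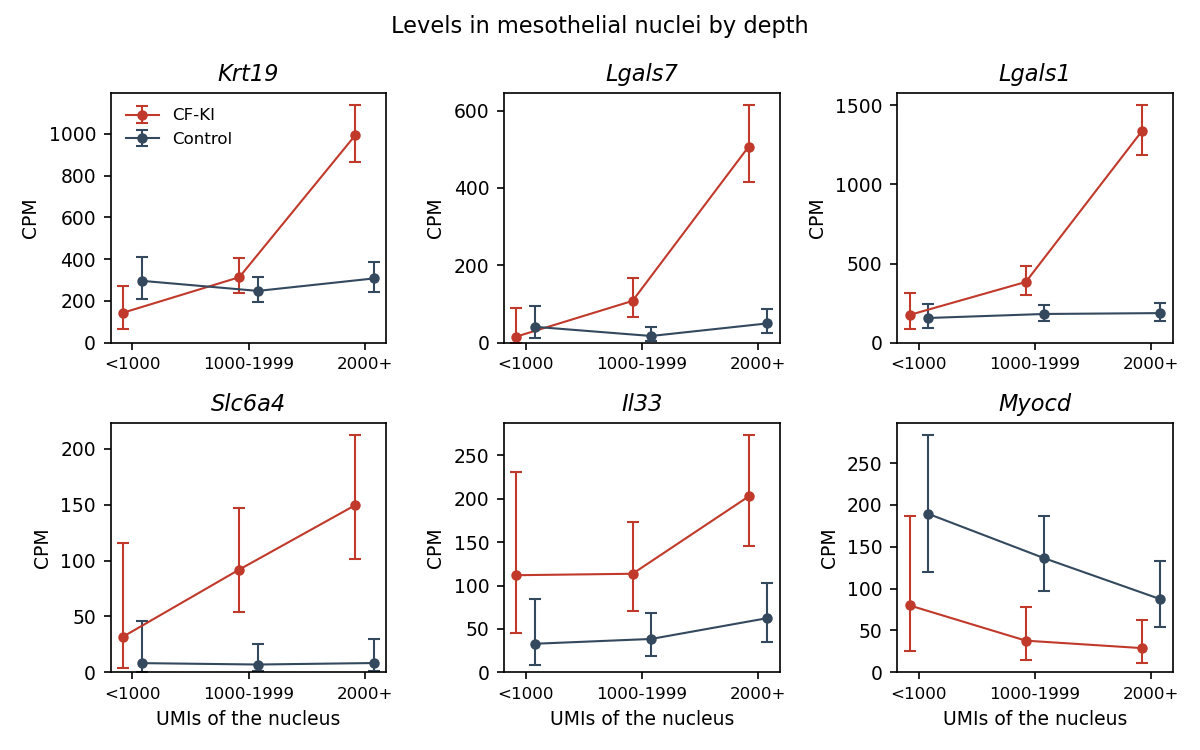
CPM of 6 genes in mesothelial nuclei of under 1000, 1000 to under 2000 and 2000 or more UMIs, for CF-KI (red) and control (dark blue), with exact 95% Poisson intervals. Every vertical axis is linear and starts at 0. Krt19, Lgals7 and Lgals1 differ most in the deepest nuclei, and Krt19 is lower in CF-KI under 1000 UMIs, while Slc6a4, Il33 and Myocd keep the same direction in all 3 depths.

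The altered gene and the Cre driver were hardly detectable in this layer. Nlrp3 had 1 UMI in each library, a log2 ratio of 0.51 (-5.78 to 6.80), so no difference could be detected at this depth. Tcf21, whose promoter drives Cre, had 3 UMIs (6.60 CPM) and 18 UMIs (27.8 CPM), against 102 and 110 CPM in fibroblast nuclei. Its log2 ratio of CF-KI over control was -2.07 (-4.48 to -0.30) in the chosen nuclei and -0.11 in fibroblast nuclei. With 3 UMIs this ratio is imprecise, and with at most 5% mitochondrial UMIs, where 39 CF-KI nuclei remained, the counts were 0 and 13 UMIs and gave no usable ratio. Wt1 was at 473 CPM over the 310 CF-KI nuclei, 147 of which held it, and 500 CPM over the 463 control nuclei, held by 240. Its log2 ratio was -0.08 (-0.34 to 0.17). Because Wt1 is a gene of the rule, this ratio describes the choice of nuclei and is not a finding.

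Inflammasome and interleukin-1 genes had no common direction. Of 30 genes 15 reached 20 UMIs, with a median log2 ratio of CF-KI over control of 0.03 (approximate interval -0.21 to 0.28) beside 0.06 for all 7838 genes of that minimum. Of the 15, 2 were at least 2-fold higher and 0 lower, where the background is 8.13% and 4.29% of genes. Il33, which encodes an interleukin-1 family alarmin kept in the nucleus, had 70 UMIs (154 CPM) and 30 UMIs (46.3 CPM), a log2 ratio of 1.73 (1.10 to 2.40) against 0.62 over the other barcodes. In nuclei under 1000 UMIs, of 1000 to under 2000 and of 2000 or more the Il33 ratio was 1.76, 1.56 and 1.70. Nfkbia, the gene of the NF-kappaB inhibitor, had 61 and 32 UMIs, 1.44 (0.80 to 2.11) against 0.52. Gsdme, the pore-forming gasdermin E, was the opposite, with 181 UMIs (398 CPM) and 415 UMIs (641 CPM), -0.69 (-0.95 to -0.43) against -0.05 elsewhere. Gsdme was also at log2 3.11 and 3.66 over fibroblast nuclei, and Il18r1, a subunit gene of an interleukin receptor, was at 147 and 178 CPM against 4.07 and 6.15 CPM there. Casp1 and Il1b, the protease and the cytokine of the inflammasome, did not reach the minimum.

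Complement, chemokine and acute phase genes had a median of 0.06 (-0.11 to 0.24) over the 19 of 39 that reached 20 UMIs. Of the 19, 2 were at least 2-fold higher and 0 lower, against 8.13% and 4.29% of all 7838 genes. C3, the central complement component, was at 3284 CPM (1493 UMIs) and 2783 CPM (1803 UMIs), 0.24 (0.14 to 0.34) against -0.25 elsewhere. That interval leaves out the wide spread of C3 among nuclei, described below. Over fibroblast nuclei C3 was at log2 2.31 and 1.63. The prostaglandin genes of the list differed in direction. Ptgis, prostacyclin synthase, had 207 and 147 UMIs (455 and 227 CPM), for a log2 ratio of 1.00 (0.69 to 1.32) against -0.40 elsewhere, and 0.33 in nuclei under 2000 UMIs. Ptgs1, cyclooxygenase-1, had 72 and 162 UMIs (158 and 250 CPM), -0.66 (-1.08 to -0.25) against -0.38 elsewhere. Ptgds had 40 and 16 UMIs, 1.83 (0.96 to 2.77) against 0.63. Prostacyclin synthase transcripts were thus higher and those of the enzyme upstream lower in CF-KI nuclei.

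The identity genes outside the rule had a median log2 ratio of 0.22 (0.09 to 0.35) between the libraries. Of 28, 7 were at least 2-fold higher in CF-KI and 0 lower, against 8.13% and 4.29% of all 7838 genes. Counting intervals lay above 0 for 14 and below 0 for 2, against 13.5% and 7.14% of all 7838 genes. The 7 were Krt19, Krt8, Anxa8, Dmkn, Slpi, Cavin2 and Fgf1, named as a small count. The median was 0.05 in nuclei under 2000 UMIs, so the deep nuclei described above raise it. Bnc2 was lowest, with 31 and 78 UMIs, a log2 ratio of -0.82 (-1.47 to -0.20) against 0.00 elsewhere. Cavin2, a caveolar coat gene also used by endothelium, had 285 and 141 UMIs, 1.53 (1.23 to 1.83) against 0.77.

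Immediate early and heat shock genes had a median of 0.52 (0.29 to 0.75) over 17 of 25 genes. Of the 17, 2 were at least 2-fold higher and 1 lower, against 8.13% and 4.29% of all 7838 genes. Counting intervals lay above 0 for 8 of the 17, against 13.5% of all 7838 genes. Dusp1, a phosphatase gene of the early stress response, had 47 and 21 UMIs, for a log2 ratio of 1.67 (0.90 to 2.49) against 0.64 elsewhere. Hsp90aa1 had 234 and 174 UMIs, 0.94 (0.65 to 1.23) against 0.20, and Hspa8 had 352 and 312 UMIs, 0.68 (0.46 to 0.91) against 0.57. Hspa1a had 6 and 21 UMIs, -1.30 (-2.90 to 0.06) against -0.13. The median of the list over the other barcodes was 0.13. Markers of other cells in the chosen nuclei differed in direction. Medians were 0.79 (0.65 to 0.93) for cardiomyocyte and 0.87 (0.47 to 1.27) for erythroid and platelet genes, against 0.40 and 3.98 over the other barcodes. Pericyte and smooth muscle genes were at 0.42 (-0.19 to 1.04) and adipocyte genes at 0.25. Fibroblast (-0.16), endothelial (-0.001), macrophage (-0.29), lymphocyte (-0.10), Schwann and neuron (-0.85) and airway (-3.12) genes were below 0. The adipocyte, lymphocyte and Schwann values rest on 1 gene each. The part of these RNAs was not tested.

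The remaining lists had medians near that of all 7838 genes, of which 8.13% were at least 2-fold higher and 4.29% at least 2-fold lower. Epicardial transcription factors and activation genes were at -0.08 (-0.29 to 0.12), with Tcf21 as the 1 gene at least 2-fold lower and 0 higher. Vim, the intermediate filament gene vimentin, had 413 and 305 UMIs (908 and 471 CPM), 0.95 (0.73 to 1.17) against -0.07 elsewhere, and Sema3d was at 0.50 (0.17 to 0.83) against -0.12. Retinoid genes were at 0.17 (-0.26 to 0.60), with 0 past 2-fold in either direction. Growth factors were at 0.24 (0.01 to 0.47), with 3 of 20 at least 2-fold higher. These were Dkk3, a secreted Wnt modulator gene with 30 and 9 UMIs and a log2 ratio of 2.25 (1.14 to 3.51) against -0.73 elsewhere, Tgfb3 with 34 and 18 UMIs and 1.43 (0.56 to 2.34) against 0.10, and Fgf9 with 1.10 (-0.15 to 2.41). Junction genes were at 0.11 (-0.06 to 0.29), with Afdn, the adherens-junction scaffold afadin, at -0.61 (-0.91 to -0.31) against -0.14 and Dsp, desmoplakin, at 1.26 (0.62 to 1.91) against 0.89 elsewhere. Basement membrane and matrix genes were at 0.09 (-0.05 to 0.23), with Has1 as the 1 gene at least 2-fold higher and Col8a1 as the 1 lower. Has1 had a counting interval of 0.05 to 2. The 3 positional genes that reached 20 UMIs had a median of 0.10 (-0.82 to 1.01).

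**Figure D5:**
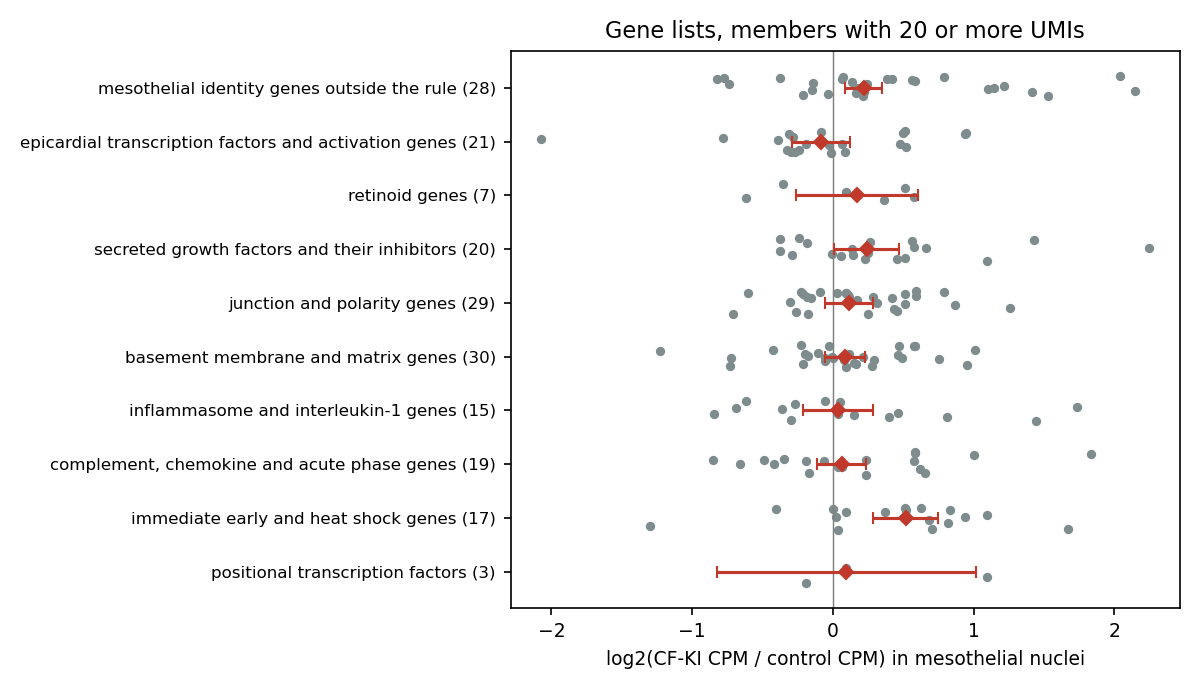
Log2 ratio of CF-KI over control CPM in mesothelial nuclei for the members of 10 gene lists with 20 or more UMIs (grey points, number in parentheses). Red diamonds are list medians with an approximate 95% counting interval. Points are spread vertically only to keep them apart. The medians lie between -0.08 and 0.52, and single genes reach from about -2 to 2.

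Among the chosen nuclei themselves some genes varied far more than counting allows. The ratio of the variance to that of a Poisson count at each nucleus's depth was 17.1 and 18.4 for Igfbp5 and 8.04 and 8.37 for C3, secreted products of the layer. For Rarres2, the gene of the chemoattractant chemerin, it was 5.03 and 4.24. Malat1 and Gm42418 were at 82.7 and 59.8 and at 29.8 and 40.3. Ren1, the renin gene, stood at 9.09 and 8.77, and its 15 and 38 UMIs came from only 2 and 3 nuclei. Ttn, Mhrt, Dcn and Mgp, genes of muscle, fibroblasts and vascular cells, complete the 10 most variable. Igfbp5 and C3 were thus unevenly spread over the nuclei in both libraries.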

How the data were processed

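The data are 2 deposited 10x Chromium Single Cell 3' v3 matrices of nuclear RNA, 1 per genotype. Their values are raw UMI counts per gene and barcode made by the authors with Cell Ranger 6.1.1, per the file headers, on mm10, per the submitters' processing notes. Each matrix lists 32245 features, and its barcodes hold at least 500 UMIs. The 15077 and 11257 deposited barcodes were filtered and chosen by the rule given in the report. The members and lists were chosen with earlier results of these data known.

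Counts of the chosen nuclei were summed per library and divided by their non-mitochondrial sum. Log2 ratios had no pseudocount, counts under 3 were set to 3 where 2-fold was judged, and at least 50 UMIs (20 for lists) over both libraries were required. Intervals are exact for levels (Poisson), ratios (conditional binomial) and shares (Clopper-Pearson). The interval for the difference of shares (Newcombe) is approximate. No test was run, since each group is 1 library. The computation was tested on simulated data.

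Named genes are those with interval ends furthest from 0 (12 in each direction), the 15 highest and 8 lowest over fibroblast nuclei, up to 4 by level and 2 by ratio in each direction of each list, the 10 most variable, and Nlrp3, Tcf21 and Wt1. Other list genes named were added after their values were seen. Alternatives were other mitochondrial, gene, marker and UMI limits, TMM (edgeR 4.0.16) and median-of-ratios (DESeq2 1.42.0) scaling, equal weight per nucleus, thinning, free RNA subtraction and doublet scores (Scrublet in scanpy 1.11.5). Python 3.11.15 and R 4.3.3 were used. One gene that the rule names is not reported here.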

Additional observations from a re-analysis of the deposited data

How the results depend on the processing

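The share of mesothelial nuclei, with a difference of -1.79 percentage points, was -2.53 at a mitochondrial limit of 5%, which left 39 CF-KI and 291 control nuclei, -0.972 at 10%, -1.27 with Scgb1a1 among the excluded genes and -0.899 with thinned barcodes. The 290 genes at least 2-fold higher and 79 lower in CF-KI became 140 and 173 at the 5% limit and 637 and 336 at a minimum of 20 UMIs, and 127 were lower under median-of-ratios scaling and 127 with equal weight per nucleus. Over fibroblast nuclei 438 genes were higher and 117 lower, against 737 and 248 at a minimum of 20 UMIs, while 61 were lower at the 10% limit and 55 in nuclei under 2000 UMIs. List medians moved at the 10% limit to 0.51 for identity and 0.67 for retinoid genes. At the 5% limit they were 0.78 for growth factors, -0.16 for junction and -0.29 for basement membrane genes. The basement membrane median was 0.60 without nuclei of 3 or more fibroblast markers and 0.26 without the highest doublet scores. The identity median was 0.42 with free RNA subtracted and 0.05 in nuclei under 2000 UMIs, where the junction median was -0.08.

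Of 649 values for 65 named genes under other settings, 555 lay inside the main counting interval and 86 outside it. For genes whose main interval held 0 a change of sign was not counted, as for Agrn (0.28, and -0.64 at the 5% limit). The remaining 8 values had the other sign in genes whose main interval lay off 0. At the 5% limit these were Itm2a (0.31), Tjp1 (-0.59) and Col4a2 (-0.17), on 5, 3 and 3 CF-KI UMIs, and the summed epicardial list (-0.02). Tcf21 was at 0.52 there only because its 0 CF-KI UMIs, against 13, were set to the floor of 3, so no change of sign was measured. The others were Itm2a without nuclei of 3 or more fibroblast markers (0.09), Col4a2 with free RNA subtracted (-0.58), Retnla without the highest doublet scores (0.95), Cp (0.10) and the summed growth factor list (-0.01) under 2000 UMIs, and the summed complement list with equal weight (-0.01). The causes were not tested. Scrublet's own threshold marked 1 CF-KI barcode and 328 control barcodes and so did not work in CF-KI. That alternative was replaced, after seeing the data, by leaving out the 1520 and 981 highest scores, and the split at 2000 UMIs was also chosen after seeing the data. The uroplakin and proliferation lists gave no value. No paired analysis was possible because each group is 1 library. Depth limits genes of few UMIs, such as Nlrp3 and Tcf21.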
